A study of Mus musculus with 8 samples.

Results

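Long noncoding RNAs of 2 kinds were described in sorted GFP+ cells, marked by Cre from an endothelial promoter. The first kind is the nuclear-retained *Malat1* and *Neat1*. The second is 6 genes whose introns carry small nucleolar RNAs (snoRNAs), *Gas5*, *Snhg1*, *Snhg5*, *Snhg6*, *Snhg8* and *Snhg12*. These 8 of the 54532 genes in the count table were found by symbol. They were chosen by their counts in these same libraries, that is on their level by tissue and diet and on their KO over WT ratio in each pair, so all of those values are given as a description with no test. RNAseq of GFP+ (mG+) cells, purified by FACS from 8-month-old females, gave 8 libraries. All mice carried *Tie2e-cre*, which expresses Cre from an endothelial *Tie2* promoter fragment, and the *mTmG* reporter, which switches a cell from membrane Tomato to membrane GFP once Cre has acted. WT mice were TERT+/+ and EC-*Tert*-KO mice were TERTfl/fl, so the controls carried Cre and reporter too. In every library the summed markers of another cell type exceeded those of endothelial cells, as given below. With 1 library per genotype and source, the sorted cells came from subcutaneous adipose tissue (SAT) of mice on high-fat diet (HFD), and from SAT, visceral adipose tissue (VAT) and gastrocnemius muscle of mice on chow. How many mice gave the cells of a library is not stated in the sources used here, and no difference within a pair has a replicate check. Intervals in brackets are 95% intervals that cover counting error only.

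*Malat1* is a long, abundant RNA that stays in the nucleus at nuclear speckles, the bodies where splicing factors gather. *Neat1* lies next to it and is the scaffold of paraspeckles, nuclear bodies built on its long isoform with proteins such as NONO and SFPQ. The snoRNA host genes work differently: their introns are processed into snoRNAs that guide the modification of ribosomal RNA, while the spliced exons are exported and commonly degraded during translation by nonsense-mediated decay. Many hosts belong to the 5′ TOP class, whose transcripts start with a run of pyrimidines and whose other members encode ribosomal proteins and translation factors. Since RNA from all cells in the gate is measured together, fewer cells of a type and less RNA per cell cannot be told apart.

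*Malat1* (chr19:5795690-5802672) and *Neat1* (chr19:5824708-5845478) lie on the minus strand of GRCm38, 22035 bases apart, and each covers its span with exons (6983 and 20771 bases). Counts per gene do not separate the short and long isoforms of *Neat1*. The hosts are shorter. *Gas5* (chr1:161034422-161038539) has an exon union of 3760 bases and up to 12 exons in a transcript, *Snhg1* (chr19:8723475-8726443) has 2969 bases, *Snhg12* (chr4:132308623-132311024) 2402, *Snhg5* (chr9:88521050-88522929) 1730, *Snhg6* (chr1:9941959-9944118) 1146 and *Snhg8* (chr3:123507552-123508404) 853 bases. *Gas5*, *Snhg1* and *Snhg12* lie on the plus strand and the other 3 on the minus strand. Start sequences were read from RefSeq (GRCm38.p6), which had an entry for 6 of the 8 genes. They are shown for the contrast between the host class and *Malat1*, 50 bases to each side of the annotated start, 5′ to 3′ on the strand of the gene, with the longest run of C and T within 20 bases of the start in capitals.
Malat1, chr19:5802623-5802722, minus strand: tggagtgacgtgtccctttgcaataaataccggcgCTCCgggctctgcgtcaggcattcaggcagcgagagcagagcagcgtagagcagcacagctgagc
Gas5, chr1:161035116-161035215, plus strand: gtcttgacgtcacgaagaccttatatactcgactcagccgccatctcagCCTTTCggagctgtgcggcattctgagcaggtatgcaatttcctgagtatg
Snhg1, chr19:8723437-8723536, plus strand: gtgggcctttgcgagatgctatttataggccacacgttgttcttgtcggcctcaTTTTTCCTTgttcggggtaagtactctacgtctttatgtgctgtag
Snhg5, chr9:88522848-88522947, minus strand: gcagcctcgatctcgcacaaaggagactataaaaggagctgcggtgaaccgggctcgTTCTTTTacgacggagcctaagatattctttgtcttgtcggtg
Snhg8, chr3:123508287-123508386, minus strand: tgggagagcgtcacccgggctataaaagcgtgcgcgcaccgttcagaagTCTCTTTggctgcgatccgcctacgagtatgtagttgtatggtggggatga
Snhg12, chr4:132308628-132308727, plus strand: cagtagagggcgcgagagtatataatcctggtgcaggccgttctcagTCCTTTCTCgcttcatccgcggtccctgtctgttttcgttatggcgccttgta
The run was 9 bases in *Snhg1* and *Snhg12*, 7 in *Snhg5* and *Snhg8*, 6 at the downstream *Gas5* start shown and 3 at its upstream start, against 4 in *Malat1*. With the annotated start as position 1, it began at −1 in *Gas5* (start shown) and *Snhg8* and at −3 in *Snhg12*. In *Snhg1* it began at 5 and in *Snhg5* at 8, downstream of the annotated start, and in *Malat1* at −15. Among 32851 mouse promoters the median run was 5 bases, 10.7% had a run of at least 9, 24.3% of at least 7, 37.5% of at least 6 and 78.6% of at least 4. The letters TATAAA or TATATA, searched on both strands in the 50 bases before the start, were found in all 5 hosts with an entry (for *Gas5* at the start shown) and not in *Malat1*, and in 4.5% of all promoters. In *Snhg1* the match was only on the strand opposite to the gene. The letters searched were chosen after the sequences had been seen, and a match is a description of the sequence.

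The library totals ran from 6214269 to 18855772 counts. Levels are counts per 1000000 (CPM) scaled by edgeR's TMM factors, which ran from 0.857 (SAT chow WT) to 1.16 (SAT HFD KO). *Tert* counts, WT then KO, were 114 and 0 with HFD in SAT, 70 and 11 with chow in SAT and 24 and 7 in muscle. In VAT they were 3 in the library labelled WT and 9 in the one labelled KO, the opposite order, with an interval of the log2 ratio that includes no difference [−1.02 to 3.5]. *Tert* thus did not check the VAT labels at this depth, and the VAT genotypes below are those of the labels only. The long noncoding gene *Gm26917* took 9.72% of counts in the SAT HFD WT library and 0.195% to 1.07% elsewhere. Endothelial markers (15 of 15 detected in every library) summed to between 424 and 3631 CPM. In the SAT HFD and SAT chow libraries they were exceeded by markers of stromal cells (1318 to 4368 CPM), T cells (1391 to 3236 CPM) and B cells (1272 to 2274 CPM). Markers of macrophages exceeded them in VAT (14640 and 14432 CPM, WT then KO as labelled). Markers of neutrophils did so in muscle (27629 and 31595 CPM, WT then KO). Macrophage markers also exceeded the endothelial ones in muscle (5535 and 5319 CPM, WT then KO), SAT HFD WT (705 CPM) and SAT chow WT (2145 CPM). Stromal markers also did so in the VAT library labelled KO (3759 CPM). Adipocyte markers summed to between 0 and 11.8 CPM, with *Lep* at 0 in all libraries but those of VAT and all 5 markers at 0 in both SAT HFD libraries.

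*Malat1* was among the 26 genes with the most counts in 7 of the 8 libraries, and stood far lower in the SAT chow WT library. It measured 5186 and 4731 CPM (WT, then KO) with HFD in SAT, 299 and 6005 CPM with chow in SAT, 4724 and 3405 CPM in VAT, and 2176 and 2600 CPM in muscle. The SAT chow WT value, rank 555 among genes, lay below the 6 libraries of the other conditions, 13.6-fold under their median of 4065 CPM, while the SAT chow KO value, rank 3, lay above them. By the mean of a condition's libraries the order was SAT on HFD, VAT, SAT on chow and muscle. Of the neighbours in that order, only SAT on HFD and VAT did not overlap.
*Neat1* followed the same outline at a lower level. It measured 548 and 303 CPM (WT, then KO) with HFD in SAT, 74.9 and 384 CPM with chow in SAT, 602 and 385 CPM in VAT, and 193 and 263 CPM in muscle. The SAT chow WT library was again the lowest, 4.59-fold under the median of the 6 libraries of the other conditions, and the KO library of that pair lay within their range. The order by mean was VAT, SAT on HFD, SAT on chow and muscle, and each neighbour overlapped the next. Being under the 6 libraries of the other conditions in the SAT chow WT library was shared with 16.1% of the 16971 genes averaging 10 counts or more.
Per kilobase of exon, *Malat1* had between 11.9 (SAT chow WT) and 46.5 (SAT chow KO) times the level of *Neat1*. Its level per kilobase ran from 42.8 CPM in the SAT chow WT library to 860 CPM in the SAT chow KO library, and that of *Neat1* from 3.61 to 29.0 CPM. For *Neat1* the divisor was its whole exon union of 20771 bases. Were most of its counts from the short isoform, its level per kilobase would be higher and the ratio lower. The share of each isoform was not tested. In the SAT chow WT library alone, *Malat1* per kilobase was under *Snhg8* (86.9 CPM), *Gas5* (68.5 CPM) and *Snhg1* (65.1 CPM).

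All 6 snoRNA hosts had their highest mean level in SAT on chow, and 5 of the 6 their lowest in VAT. The shares of all genes with these traits were not counted, so neither is given as particular to the hosts. *Gas5*, host of a cluster of box C/D snoRNAs and named for its accumulation in growth-arrested cells, measured 140 and 143 CPM (WT, then KO) with HFD in SAT, 258 and 231 CPM with chow in SAT, 96.0 and 120 CPM in VAT, and 126 and 129 CPM in muscle. The 4 conditions did not overlap, with SAT on chow first and VAT last. *Snhg1*, which hosts *Snord22* and 7 further snoRNA entries, measured 80.2 and 70.3 CPM, 193 and 123 CPM, 44.7 and 48.0 CPM, and 64.3 and 52.9 CPM in the same order of libraries. Its conditions kept the same order as those of *Gas5*, again without overlap. For these and the other members, how many of all genes had conditions that do not overlap was not counted.
*Snhg12*, host of both H/ACA and C/D snoRNAs, measured 36.6 and 33.3 CPM (WT, then KO) with HFD in SAT, 65.9 and 54.4 CPM with chow in SAT, 17.8 and 21.3 CPM in VAT, and 33.9 and 32.4 CPM in muscle. SAT on chow stood above and VAT below the overlapping SAT on HFD and muscle. *Snhg8*, host of *Snora24*, measured 33.1 and 26.6 CPM, 74.1 and 28.7 CPM, 13.1 and 17.5 CPM, and 19.6 and 26.7 CPM. Its SAT chow KO value lay among those of SAT on HFD, so that only the WT library carried the high mean.
*Snhg5*, host of *Snord50a* and *Snord50b*, measured 29.9 and 27.0 CPM (WT, then KO) with HFD in SAT, 59.4 and 31.0 CPM with chow in SAT, 12.7 and 16.5 CPM in VAT, and 40.0 and 40.6 CPM in muscle. The KO library of SAT on chow lay below both muscle libraries. *Snhg6*, host of *Snord87*, measured 0 and 14.0 CPM, 26.6 and 26.8 CPM, 10.5 and 9.06 CPM, and 26.1 and 22.8 CPM. Its lowest mean fell in SAT on HFD because of the library at 0, and VAT and SAT on HFD overlapped.
The SAT chow WT library was above the 6 libraries of the other conditions for all 6 hosts, where 27.9% of all genes were, and the SAT chow KO library for 4 of 6 (*Gas5*, *Snhg1*, *Snhg6* and *Snhg12*), where 16.1% were. Both SAT chow libraries lay above the others for the same 4 hosts, where 5.61% of all genes did so. Without the SAT chow WT library, 4 of the 6 hosts had their highest level in SAT on chow, the top condition of *Snhg5* became muscle, that of *Snhg8* SAT on HFD, and that of *Malat1* SAT on chow. By the median over libraries and per kilobase of exon, the hosts ran from *Gas5* (35.7 CPM) and *Snhg8* (31.3 CPM) through *Snhg1* (22.7), *Snhg5* (17.6) and *Snhg6* (16.0) to *Snhg12* (14.0 CPM), with every neighbour in that order overlapping the next over the libraries.

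**Figure D1:**
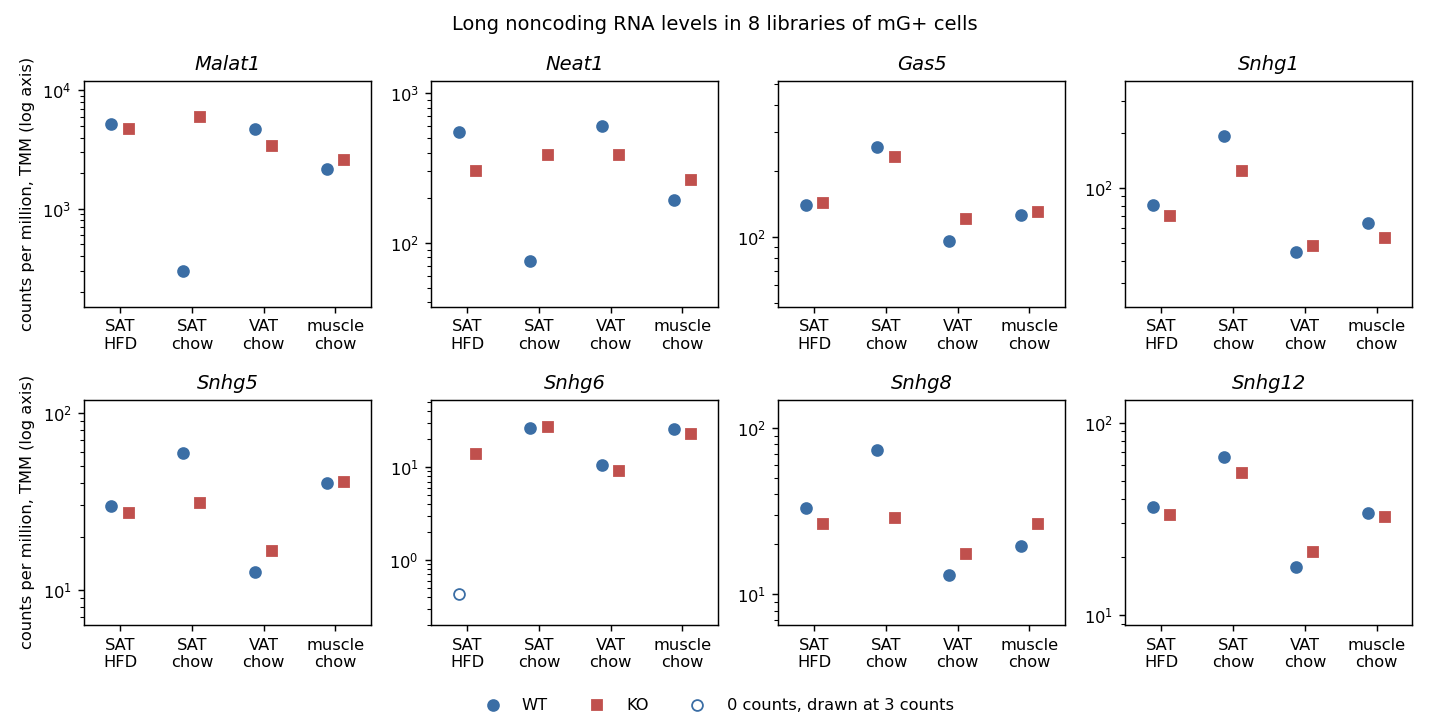
Level of each of the 8 RNAs in CPM (TMM scaled, log axis) in the 8 libraries, by tissue and diet, with a circle for WT and a square for KO and no error bar since each is 1 library. The SAT chow WT circle is the lowest point for Malat1 (299) and Neat1 (74.9) and the highest for 5 of the 6 hosts, and the open circle marks Snhg6 at 0 counts, drawn at 3 counts.

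The contrasts of the nuclear RNAs that involve SAT on chow differed between the genotypes. Between the diets in SAT, *Malat1* was 17.4-fold lower on chow in the WT libraries and 1.27-fold higher in the KO libraries, and *Neat1* was 7.32-fold lower and 1.27-fold higher. From SAT on chow to VAT, *Malat1* was 15.8-fold higher in VAT in the WT libraries and 1.76-fold lower in the KO libraries, and *Neat1* was 8.03-fold higher in WT and had a log2 ratio in KO of 0.0037 [−0.05 to 0.06]. Between VAT and muscle both RNAs were higher in VAT in either genotype, *Malat1* by 2.17-fold in WT and 1.31-fold in KO and *Neat1* by 3.11-fold and 1.46-fold. The hosts other than *Snhg6* were 1.80-fold (*Snhg12*) to 2.41-fold (*Snhg1*) higher on chow than on HFD in the WT SAT libraries and 1.08-fold (*Snhg8*) to 1.75-fold (*Snhg1*) higher in the KO SAT libraries, where the intervals of *Snhg5* and *Snhg8* included no difference. *Snhg6* was at least 61.2-fold higher on chow in WT, against 0 counts on HFD, and 1.91-fold higher in KO. Among the hosts the depot pointed the same way in WT and KO. From VAT to SAT on chow, each of the 6 hosts was higher in SAT in both genotypes as labelled, by 2.51-fold (*Snhg6*) to 5.65-fold (*Snhg8*) in WT and by 1.64-fold (*Snhg8*) to 2.95-fold (*Snhg6*) in KO. The share of all genes higher in SAT than in VAT in both genotypes was not counted. The markers of T cells (8 of 8 detected) moved in the same direction. They were at 3236 and 1391 CPM (WT, then KO) in SAT on chow against 225 and 299 CPM in VAT. Those of B cells (7 of 7) did so too, with 2274 and 1571 CPM against 164 and 173 CPM. Macrophage markers (10 of 10) moved the other way, from 2145 and 891 CPM (WT, then KO) to 14640 and 14432 CPM. Their part in the levels was not tested.

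KO over WT, the nuclear RNAs were higher in SAT on chow and lower in SAT on HFD and in the VAT pair as labelled. In SAT on chow *Malat1* went from 4827 counts in WT to 96834 in KO, a log2 ratio of 4.33 [4.29 to 4.37], which is 20.1-fold. *Neat1* went from 1210 to 6197 counts, a log2 ratio of 2.36 [2.27 to 2.45], which is 5.13-fold. Both whole intervals lay beyond 2-fold, as they did for 19.1% of the 16908 genes tested in that pair (those averaging 10 counts or more). *Malat1* exceeded 95.2% and *Neat1* 89.0% of them. Against the median of the 6 libraries of the other conditions, the KO values were 1.48 times as high for *Malat1* and 1.12 times for *Neat1*, so the WT library held the larger departure.
In the remaining pairs the ratios were smaller. *Malat1* had log2 ratios of −0.13 [−0.15 to −0.11] in SAT on HFD, −0.47 [−0.49 to −0.45] in VAT and 0.26 [0.24 to 0.28] in muscle. Those of *Neat1* were −0.86 [−0.92 to −0.79], −0.64 [−0.70 to −0.59] and 0.44 [0.38 to 0.51]. Within each pair the sign was thus the same for both RNAs, negative in SAT on HFD and VAT and positive in SAT on chow and muscle. After removal of the running median on exon length, the SAT chow value of *Neat1* was 0.94, under 2-fold, while that of *Malat1* was 3.91. The correction placed *Neat1* by its whole exon union, with isoforms not separated.

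In SAT on chow the log2 ratios of the hosts were near or below 0. There *Snhg8* went from 1198 to 462 counts, a log2 ratio of −1.37 [−1.53 to −1.22], 2.59-fold lower, and was the single host whose interval lay wholly beyond 2-fold, as did those of 11.5% of genes in that direction. *Snhg5* (959 to 500 counts) had −0.94 [−1.10 to −0.78] and *Snhg1* (3123 to 1989 counts) −0.65 [−0.73 to −0.57]. *Snhg12* had −0.28 [−0.41 to −0.15], *Gas5* −0.16 [−0.22 to −0.09] and *Snhg6* 0.013 [−0.18 to 0.21]. The median over the 6 hosts was −0.46, against 0.0029 over all genes tested. Scaled by library totals, *Snhg8* no longer passed 2-fold and the *Gas5* value turned to 0.069. After the length correction *Snhg8* was at −0.87, under 2-fold, *Snhg5* at −0.25, *Snhg1* at −0.34 and *Snhg6* at 0.61, and *Gas5* (0.14) and *Snhg12* (0.22) turned positive.
In VAT as labelled, the interval lay above 0 for *Gas5* (0.32 [0.20 to 0.44]), *Snhg5* (0.38 [0.05 to 0.72]) and *Snhg8* (0.41 [0.09 to 0.75]) and included 0 for *Snhg1* (0.10), *Snhg6* (−0.22) and *Snhg12* (0.26). In muscle *Snhg8* was higher at 0.45 [0.23 to 0.67] and *Snhg1* lower at −0.28 [−0.42 to −0.14], and the intervals of *Gas5* (0.032), *Snhg5* (0.021), *Snhg6* (−0.20) and *Snhg12* (−0.066) included 0. In SAT on HFD *Snhg1* (−0.19 [−0.35 to −0.04]) and *Snhg8* (−0.31 [−0.56 to −0.07]) were lower, and *Gas5* (0.031), *Snhg5* (−0.15) and *Snhg12* (−0.14) had intervals that included 0.
No member lay beyond 2-fold in VAT or muscle, where 2.4% (higher) and 2.09% (lower) of 16439 genes and 2.76% and 2.01% of 16967 genes did so. In SAT on HFD the single member beyond 2-fold was *Snhg6*, higher in KO, against 12.9% of 15839 genes, and no member was lower beyond 2-fold, against 10.9%.

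**Figure D2:**
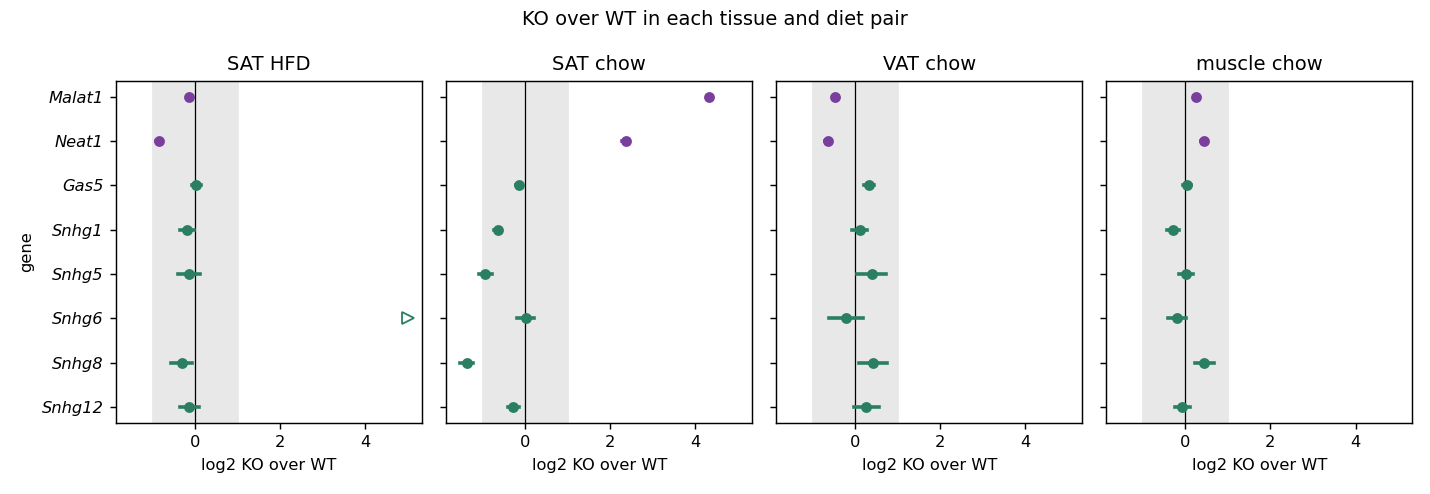
Log2 KO over WT of the 8 RNAs in each tissue and diet pair, purple for the nuclear RNAs and green for the snoRNA hosts, with bars for the 95% counting interval (narrower than the point where not seen) and grey for less than 2-fold. Malat1 (4.33) and Neat1 (2.36) lie to the right and Snhg8 (−1.37) to the left in SAT on chow, and the open triangle is the lower bound of Snhg6 in SAT on HFD.

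*Snhg6* in SAT on HFD had 181 counts in KO and 0 in its WT partner, at least 32.2-fold higher in KO against a floor of 3 counts, which is 0.434 CPM in that WT library. The other 7 RNAs had between 207 and 35869 counts in the same WT library. Such zeros were not limited to *Snhg6*. Of 3416 genes with 100 to 300 counts in the KO library of that pair, 64 (1.87%) had 0 counts in WT. In the reverse direction it was 9 of 3749 genes (0.240%). The window is of raw counts, and the WT library held 6214269 counts against 11117656 in KO, so the directions cover unlike levels. Zeros in WT numbered 29 of 3397 in SAT on chow, 3 of 3259 in VAT and 0 of 3308 in muscle. In the other 3 pairs *Snhg6* had 95 to 432 counts per library, and each interval of its ratio included 0.

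The annotation places 27 snoRNA entries inside the 6 hosts, 10 in *Gas5*, 8 in *Snhg1*, 5 in *Snhg12*, 2 in *Snhg5* and 1 each in *Snhg6* and *Snhg8*. Of these, 26 lie wholly within the exon union of their host and all 26 had 0 counts in every library. The remaining entry, *Snord87* in an intron of *Snhg6*, had 11 counts in the VAT library labelled KO and 0 in the one labelled WT, 4 and 2 counts in muscle WT and KO, 2 in SAT chow KO and 0 elsewhere. The host values above are therefore those of the host entry as counted, and the snoRNAs themselves were not measured apart from it. Genes on the opposite strand share 149 bases with the exons of *Gas5* (*Zbtb37*) and 127 bases with those of *Snhg6* (*Mcmdc2*). The opposite-strand entries *Gm20417* (988 bases) and *Gm37376* (453 bases) lie wholly within the exons of *Malat1*. Same-strand entries also lie within *Malat1* (*Gm27694*) and *Neat1* (*Gm27533*, *Gm27505* and *Gm28006*). All of those inside *Malat1* and *Neat1* had 0 counts in every library. The use of strand in counting is not given in the sources used here. *Zbtb37*, a zinc finger gene, went from 180 to 1221 counts in the SAT chow pair, a log2 ratio of 2.76 [2.54 to 3.0], where *Gas5* had −0.16. *Mcmdc2* had 0 counts in both SAT HFD libraries.

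Set against the hosts within a library, which needs no scaling, the nuclear RNAs stood apart in a single library. The summed counts of *Malat1* and *Neat1* were, WT then KO, 18.0 and 16.0 times those of the 6 hosts with HFD in SAT, 0.552 and 12.9 times with chow in SAT, 27.3 and 16.3 times in VAT, and 7.64 and 9.40 times in muscle. On the log2 scale the KO minus WT difference was −0.16 in SAT on HFD, 4.55 in SAT on chow, −0.75 in VAT as labelled and 0.30 in muscle. The SAT chow WT library was the only one with fewer counts on the nuclear RNAs (6037) than on the hosts (10937). *Malat1* over *Neat1*, also a ratio within the library, was lowest there too, at 3.99 counts of *Malat1* per count of *Neat1* against 7.85 to 15.6 in the other 7 libraries.

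**Figure D3:**
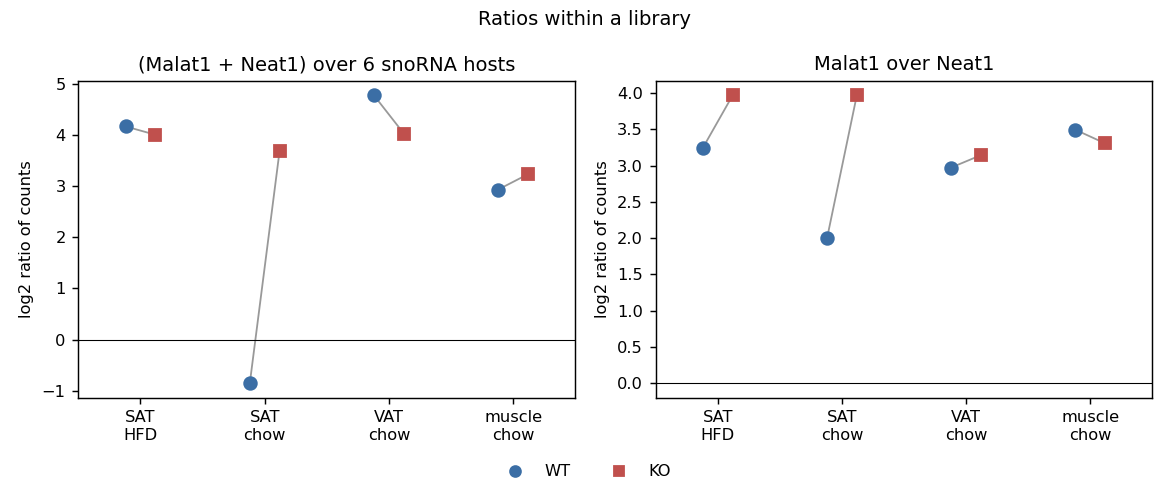
Log2 ratio of counts within each library, with a circle for WT and a square for KO: on the left Malat1 plus Neat1 over the 6 snoRNA hosts, on the right Malat1 over Neat1. The SAT chow WT library lies at −0.86 on the left, the only value under 0, and at 2.0 on the right, the lowest.

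Several measures of the whole library moved with the SAT chow pair. The share of counts on cytosolic ribosomal protein genes was 12.4% in WT and 5.01% in KO, against 2.64% to 6.38% in the 6 libraries of the other conditions. Long noncoding RNAs other than *Malat1* and the abundant *Gm26917* took 0.520% of counts in WT and 1.13% in KO, and the share in mitochondrially encoded protein genes was 3.23% and 2.02%. The KO over WT ratio also ran with gene length in that pair: the median log2 ratio was −0.49 in the shortest of 4 equal classes by exon union (up to 2115 bases) and 0.57 in the longest class (6091 bases and more). In the other pairs the medians of the classes lay between −0.094 and 0.14. *Malat1* and *Neat1* fall in the longest class, while *Snhg5*, *Snhg6* and *Snhg8* fall in the shortest. Stromal markers (10 of 10 detected) were at 1318 CPM in WT and 4368 CPM in KO, mural cell markers (7 and 8 of 8, with *Cspg4* at 0 in WT) at 67.0 and 231 CPM and endothelial markers at 698 and 933 CPM. T cell markers were at 3236 and 1391 CPM, B cell markers at 2274 and 1571 CPM, macrophage markers at 2145 and 891 CPM and neutrophil markers (10 of 10) at 338 and 98.3 CPM. Their part in the SAT chow values was not tested.

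Companion genes of the same pathways were taken as 7 lists. For KO against WT over the 4 pairs together, with tissue and diet as a block, the quasi-likelihood test of edgeR called 0 genes of any of the 7 lists at an adjusted threshold of 0.05, the Wald test of DESeq2 also called 0, and 0 list genes reached an unadjusted p under 0.05 in edgeR. Over all 16971 genes tested, edgeR called 1 gene (0.00589%), with 277 at an unadjusted p under 0.05, and DESeq2 called 19. The gene called was the MHC class II pseudogene *H2-Ea-ps*, named after its value was seen, with 0 counts in both SAT HFD libraries, 0 to 7 in the other WT libraries and 2291 to 14205 in the other KO libraries. The lists below are therefore described pair by pair, against all-gene medians of 0.059 in SAT on HFD, 0.0029 in SAT on chow, 0.0115 in VAT and 0.0008 in muscle. Values of the lists and their genes were not corrected for exon length, with which the SAT chow ratio ran. The part of length in them was not tested.
Other nuclear long noncoding RNAs, 12 of 14 tested, were also mostly higher in KO in SAT on chow. Their median log2 KO over WT there was 1.70, with 7 higher and 0 lower beyond 2-fold, where 19.1% and 11.5% of all genes were. *Meg3*, an imprinted RNA, went from 4 to 333 counts, a log2 ratio of 6.18 [5.01 to 8.27]. *Miat*, a nuclear body RNA, had 1 and 141 counts, a log2 ratio of 6.46 [4.64 to 12.5], and *Airn*, the antisense RNA of the *Igf2r* locus, 32 and 130 counts at 2.0 [1.46 to 2.63]. In SAT on HFD the median was −0.34 with 4 lower beyond 2-fold, against 10.9% of all genes, among them *Meg3* (198 to 137 counts, −1.43), and in VAT and muscle it was −0.12 and −0.043. *Meg3* was 1 of 2 genes of the list lower beyond 2-fold in muscle, against 2.01% of all genes, with 434 and 99 counts at −1.86 [−2.20 to −1.55]. *Pvt1*, the neighbour of *Myc*, had 140 and 168 counts in SAT on chow, a log2 ratio of 0.26 [−0.07 to 0.60].
Other snoRNA hosts, 10 of 14 tested, had medians of 0.76 in SAT on HFD (4 higher beyond 2-fold, against 12.9% of all genes), −0.46 in SAT on chow (1 higher, against 19.1%), 0.46 in VAT (8 genes) and −0.030 in muscle (9 genes). In the SAT HFD pair, 3 of the 10 had no more than 3 counts in 1 of the libraries. *Zfas1*, a host of C/D snoRNAs, had −0.87 [−0.98 to −0.76] in SAT on chow and *Epb41l4aos* −0.91 [−1.25 to −0.58]. *Snhg14*, the host of the imprinted *Snord115* and *Snord116* clusters, was higher there with 2 and 123 counts, a log2 ratio of 5.56 [4.06 to 9.01]. *Snhg18* was also higher in that pair, at 0.94 [0.10 to 1.87]. Of the 10 intervals in SAT on chow, 4 lay above 0 and 4 below, where 40.2% of all genes lay below. The mean of the list in that pair was 0.33. *Snhg18* had 37 counts in the SAT HFD KO library and 0 in its WT partner, at least 6.59-fold higher.
Protein-coding 5′ TOP genes, with all 25 tested, were lower in KO in SAT on chow. Their median was −1.43, with 25 of 25 intervals under 0, against 40.2% of all genes, and 21 of 25 beyond 2-fold, against 11.5%. These shares are of genes of all lengths, not of genes as long as those listed. Beyond 2-fold were *Rplp2*, a ribosomal stalk protein, at −1.51 and *Eif3f*, an initiation factor subunit, at −1.45, while *Npm1*, a nucleolar chaperone, at −0.88 and *Nap1l1*, a histone chaperone, at −0.65 were not. In muscle the median was −0.43 with 25 of 25 intervals under 0, against 28.9% of all genes, and with library totals, which moved the all-gene median to 0.16, it was −0.26 with 24 of 25. The median was 0.22 in VAT and 0.0044 in SAT on HFD, and 0 genes lay beyond 2-fold in muscle, VAT and SAT on HFD. The proteins that bind snoRNAs or assemble the particles were also lower in SAT on chow, with a median of −0.96 over 18 genes, 17 intervals under 0 (40.2% of all genes) and 6 beyond 2-fold (11.5% of all genes), among them *Nhp2*, an H/ACA core protein, at −2.0. *Znhit3* had −1.01, *Znhit6* −1.0 and *Nufip1* −0.62, and all 3 encode assembly factors. In SAT on HFD the median was 0.32, with *Nufip1* at 1.70 and *Znhit3* at −2.37.
The medians of the nuclear body proteins lay nearer 0. Paraspeckle proteins had medians over 21 genes of 0.17 with HFD in SAT, 0.16 with chow in SAT, 0.059 in VAT and 0.060 in muscle. In SAT on chow *Sfpq* (1.17) and *Hnrnph3* (1.07) were higher and *Nono* (−1.06) and *Nudt21* (−0.59) lower, so the partners NONO and SFPQ stood on opposite sides of 0. Nuclear speckle and splicing proteins had medians over 23 genes of 0.26, 0.31, −0.051 and −0.093 in the same order, with *Srrm2*, a speckle scaffold protein, at 1.93 and *Bclaf1* at 0.81 in SAT on chow against *Rnps1* at −0.81 and *U2af2* at −0.42. Nonsense-mediated decay factors had medians over 14 genes of 0.13, 0.13, −0.11 and −0.096 in that order. There the kinase *Smg1* had 2.02 and *Upf3b* 0.68 in SAT on chow, and *Magoh* (−1.11) and *Eif4a3* (−1.02) of the exon junction complex lay on the other side.

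**Figure D4:**
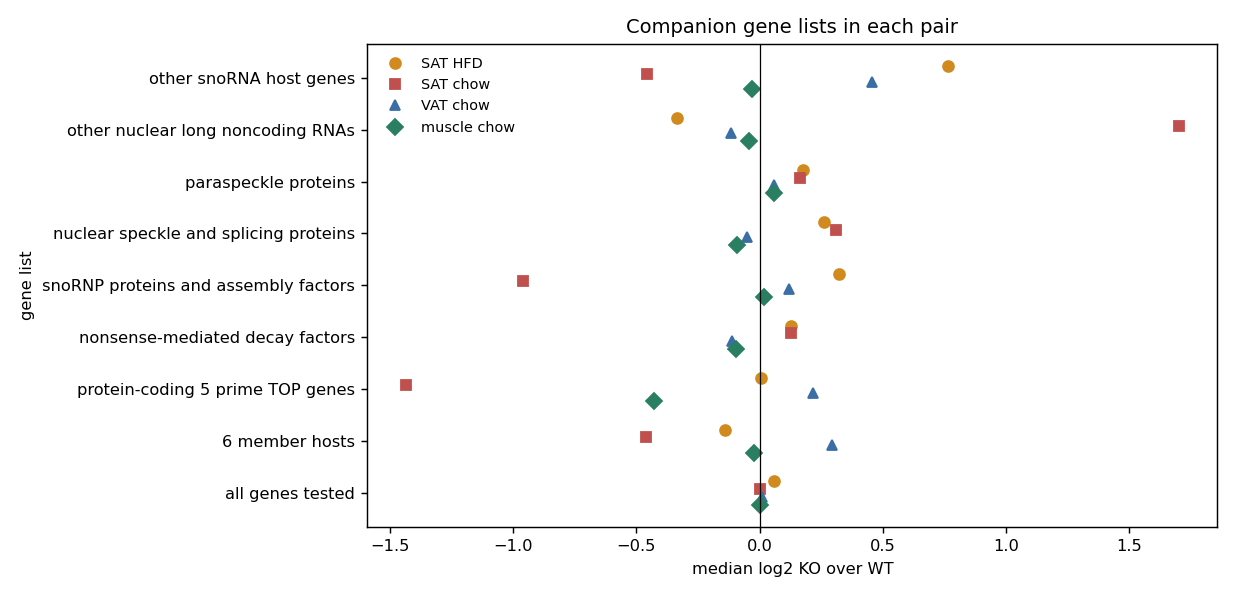
Median log2 KO over WT of each companion list, of the 6 snoRNA hosts and of all genes tested, with a marker for each tissue and diet pair. The SAT chow squares spread widest, from −1.43 for the 5′ TOP genes to 1.70 for the other nuclear long noncoding RNAs, while the all-gene medians lie between 0.0008 and 0.059.

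Over the 8 libraries the 2 nuclear RNAs had a Pearson r of 0.93 on log2 CPM, and 0.84 over the 6 libraries without SAT on chow. The 10 pairs of hosts other than *Snhg6* had r from 0.69 to 0.96, and from 0.61 to 0.91 without SAT on chow. Between a nuclear RNA and one of these hosts r was negative in all 10 pairs (−0.80 to −0.51), but ran from −0.73 to 0.21 without SAT on chow. The points share tissue, library and depth, and the values are a description. Pairs with *Snhg6* rest on its library at 0 and on the prior count.
The genes most like *Malat1* among the 12368 genes averaging 50 counts or more were *H60b*, *Gm13185*, *Gm44553*, *Gm36933* and *Golga4*, with r from 0.98 to 0.99. In the SAT chow WT library 4 of them had 0 to 3 counts and *Golga4*, a Golgi protein gene, 841. Those most like *Neat1* were *Gm36933*, *Gm20696*, *Gm45205*, *Gm37033* and *Gm42941* (r 0.96 to 0.97), with 0 to 68 counts in that library. Those most like the mean of the 6 hosts were *Abcf2*, *Zadh2*, *Aifm1*, *Cog2* and the pseudogene *Rpl9-ps7* (r 0.96 to 0.98), and with *Snhg6* left out they were *Bcas2*, *Hmgn1*, *Rps27*, *Aqr* and *Ctu2* (r 0.98 to 0.99). None of the 3 groups for *Malat1*, *Neat1* and the 6 hosts shared a gene with the 5 most alike over the libraries without SAT on chow (0 of 5 each).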

How the data were processed

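The authors deposited 1 table of whole-number read counts per Ensembl gene for the 8 libraries, not normalized. The submitters' processing notes name HISAT2 2.0.5 and GRCm38. The counting program and the use of strand are not given in the sources used here. Library preparation used a SMARTER mRNA kit. Members and gene lists were chosen with earlier results of these data known.

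Libraries were scaled by TMM over all genes (edgeR 4.0.16, R 4.3.3). Log2 KO over WT used a prior count of 0.5 scaled to library, with the exact conditional binomial (Clopper-Pearson) 95% interval, in Python 3.11.15. Genes averaging 10 counts or more over a pair formed its background. A gene was beyond 2-fold where its whole interval was. Bounds use a floor of 3 counts, between 0.184 and 0.434 CPM. Levels per kilobase used the exon union. Genotypes were compared over the 4 pairs by the quasi-likelihood test of edgeR, blocked by tissue and diet, on genes averaging 10 counts or more over all libraries, with Benjamini-Hochberg adjustment (DESeq2 1.42.0 as an alternative). Genes named are the 8 members, the 5 genes most like each pattern, the 2 highest and 2 lowest of each list by mean log2 ratio, *Tert*, overlapping genes and hosted snoRNAs. The interval was tried on simulated counts with counting error only, the error it is built for. The edgeR test was tried on counts simulated with the same change in every pair. Neither trial bears on differences between mice or libraries. Coordinates are GRCm38 (GENCODE M21, same for all 8 genes), start sequences RefSeq.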

Additional observations from a re-analysis of the deposited data

Results flagged for a closer look

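Some KO over WT ratios pointed in opposite directions in different pairs, with each counting interval away from 0 and at least 1 of the pair beyond 2-fold. With 1 library per genotype these differences were not tested. *Malat1* had a log2 ratio of −0.13 in SAT on HFD against 4.33 in SAT on chow, and 4.33 in SAT on chow against −0.47 in VAT as labelled. *Neat1* had −0.86 in SAT on HFD against 2.36 in SAT on chow, and 2.36 against −0.64 in VAT. *Snhg8* had −1.37 in SAT on chow against 0.41 in VAT and 0.45 in muscle. Each of these involves the SAT chow pair, whose WT library held the lowest *Malat1* and *Neat1* and the highest *Snhg8* levels of the 8.

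*Snord87*, in an intron of *Snhg6* and outside the exons of the host entry, had 11 counts in the VAT library labelled KO and 0 in the one labelled WT, above a floor of 3 counts.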

How the results depend on the processing

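The signs of *Malat1* and *Neat1* in each pair and the 6 hosts' highest level in SAT on chow held under every scaling tried. Alternatives chosen after seeing the data were TMM over genes averaging 10 counts or more, library totals without *Gm26917*, levels without the SAT chow WT library, the likeness without *Snhg6* and the 5′ TOP list in muscle by library totals. Library totals moved the all-gene median to 0.12, 0.23 and 0.16 in SAT on HFD, SAT on chow and muscle, and the upper quartile and DESeq2 size factors moved that of SAT on chow to 0.19 and 0.11. Of the alternative KO over WT values, 189 stayed within the counting interval, 54 moved past it and 5 reversed. In SAT on chow, *Gas5* turned to 0.069 (library totals), 0.030 (upper quartile), 0.069 (totals without *Gm26917*) and 0.14 (length correction), and *Snhg12* to 0.22 (length correction). Members lower beyond 2-fold there numbered 0 under library totals and 0 without *Gm26917*. Of the 8 members, 7 kept their highest condition under library totals, upper quartile scaling and totals without *Gm26917*. The 6 hosts kept theirs under each of these, so the change fell on a nuclear RNA. Without the SAT chow WT library, 5 members kept their highest condition.
Genes beyond 2-fold, among those averaging 50 counts or more, numbered 535 higher and 453 lower in SAT on HFD, 1821 higher in SAT on chow, 144 and 66 in VAT, and 145 and 155 in muscle. With all genes of at least 1 count they numbered 2960 lower in SAT on HFD, 959 lower in VAT and 971 higher in muscle. By the point value they numbered 3219 lower in SAT on chow, 1358 and 1123 in VAT, and 1487 and 1030 in muscle. Lower genes in SAT on chow numbered 1133 (library totals), 1265 (upper quartile) and 1132 (totals without *Gm26917*).
The nuclear to host difference was −1.33 in SAT on HFD (where *Snhg6* is at 0) and 4.66 in SAT on chow with the mean of log2 host counts, −0.83, 2.81, −0.90 and 0.47 with *Neat1* alone, 4.78 in SAT on chow with *Malat1* alone and 4.76 without *Gas5*. Genes called across the pairs numbered 19 (DESeq2), 42 (no filter), 0 (no block, edgeR, with 124 at an unadjusted p under 0.05) and 1 to 2 when leaving out each pair in turn (2 without the muscle pair). List medians and means differed in sign in 3 of 28 cases. For values whose cause is not named here, the cause was not tested. At 0 counts, differences under the floor could not be seen.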
